A study of Mus musculus with 96 samples.

Results

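The time of day program of the sleep-deprived kidney was described from the 12 kidney libraries of sleep-deprived mice (SD), out of 96 libraries in the whole series. The members were taken by the sample titles, which name tissue, condition and circadian time (CT). They comprised 2 libraries at each of 6 times, CT4, CT8, CT12, CT16, CT20 and CT24. The 4 libraries of CT4 and CT8 (early) were set against the 4 libraries of CT16 and CT20 (late), and a 24 h cosine was fitted to the full profile. The study sequenced total RNA of forebrain, cerebellum, liver and kidney to follow how tissues keep time. All mice were wild-type C57BL/6 males, which were 6 to 8 weeks old per the methods of the study and had been held in a light-dark cycle with free food and water, and the study describes the collection as made in constant darkness. SD mice were kept moving for 10 h of their resting phase in a slowly turning drum, and were then sampled at the 6 times. Control mice (CON) were left alone and gave 12 kidney libraries at the same times, and 12 liver libraries came from SD mice. Each library is a whole organ, so fewer cells of a type and less RNA per cell cannot be told apart. Within the SD libraries alone, time of day and hours since the drum cannot be told apart.

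In mammals nearly every cell keeps time with a loop of transcription factors. BMAL1, encoded by Arntl, pairs with CLOCK or NPAS2 and switches on the Per, Cry and REV-ERB genes through E-boxes, and the PER and CRY proteins then repress that pair. REV-ERB repressors and ROR activators compete for RORE elements in the Arntl promoter, and the output factors DBP, TEF, HLF and NFIL3 carry the rhythm to other genes. In the kidney this clock is known for daily rhythms of filtration and of salt and water excretion.

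Before the results, 3 features of the libraries bear on how they can be read. In the other tissues the sample characteristics give every library the time before that of its title, such as CT0 for CT4. Beyond that step, title and characteristics named different conditions or times in all 12 SD kidney libraries. Of these, 10 were given as control there and 12 carried another time. In CON kidney 8 libraries disagreed too, against 0 libraries of the other tissues. Every result below rests on the titles. Gene counts summed to 33291046 to 58486579 per SD kidney library with a median of 40469833. Markers of 6 kidney cell types, such as podocytes, proximal tubule and principal cells, were detected in full and their summed levels overlapped between the early and late libraries. Markers of adrenal cortex stayed at or under 1.34 CPM (counts scaled to the library total with TMM factors). The 6 adipocyte markers summed to 11.1 to 644 CPM, with 454 CPM in 1 CT4 library, 362 CPM in 1 CT8 library and 644 CPM in 1 CT20 library. None of those 6 markers passed the early-late test, and the early range of 16.2 to 454 CPM overlapped the late range of 12.6 to 644 CPM. The part of this fat signal in single results was not tested except through the refits with it as a covariate or without the 3 highest libraries, given with the counts.

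Some of the clock genes hold a short clock element near the transcription start. E-boxes (CACGTG, which reads the same on both strands) and the RORE core (TAGGTCA, on either strand) were searched in RefSeq promoter windows of build GRCm38.p6, from 250 bases before to 50 bases after each start. An E-box lay in 7.15% of all 32851 windows and a RORE core in 2.61%. Counted by gene, 8.09% of 27025 genes with a window held an E-box and 2.97% a RORE core. Of the 19 clock genes listed, 17 had a window, 5 of these held an E-box and 2 a RORE core. Windows of 4 late or CT24 genes with an E-box and of 3 early genes with a RORE core are shown because they stand on opposite sides of the profiles below, with the element in capitals and each sequence on the strand of its gene. They were picked for this, and Leo1 is outside the clock lists. Named early genes such as Chrna7 and Slc16a1 also held an E-box and are not shown. A window at another start of Tef held an E-box 138 bases before that start and is not shown either. The stretches are chr3:95882247-95882364 on the minus strand for Ciart, chr11:69098763-69098808 on the plus strand for Per1, chr15:81802526-81802571 on the plus strand for Tef, chr10:85185089-85185134 on the minus strand for Cry1, chr7:113207531-113207557 on the plus strand for Arntl, chr13:52981040-52981071 on the minus strand for Nfil3 and chr9:75441441-75441487 on the plus strand for Leo1. All lie upstream of the start except that of Arntl, which begins past the start, in the transcribed 5′ end of the gene.
Ciart, 3 E-boxes: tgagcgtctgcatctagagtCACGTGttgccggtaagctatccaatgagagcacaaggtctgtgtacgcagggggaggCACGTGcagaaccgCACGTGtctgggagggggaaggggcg
Per1, E-box: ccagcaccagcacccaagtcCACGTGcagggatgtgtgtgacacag
Tef, E-box: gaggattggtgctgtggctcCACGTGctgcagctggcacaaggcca
Cry1, E-box: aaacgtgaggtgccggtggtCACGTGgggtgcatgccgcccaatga
Arntl, RORE core: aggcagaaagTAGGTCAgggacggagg
Nfil3, RORE core on the opposite strand: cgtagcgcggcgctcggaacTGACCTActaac
Leo1, RORE core: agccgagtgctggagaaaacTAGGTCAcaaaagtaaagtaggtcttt
The 3 E-boxes of Ciart began 116, 58 and 44 bases before its start, so the nearer 2 were 14 bases apart. A match is a run of letters and not a measured binding site.

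Of 21170 genes tested, 193 differed between the early and late SD kidney libraries at an adjusted p under 0.05 (edgeR's quasi-likelihood test with Benjamini-Hochberg adjustment), which is 0.912%. In 96 genes the early level was higher (0.453% of those tested) and in 97 the late level (0.458%), and 45 of the 193 changed by more than 1 on the log2 scale. The 4 early libraries did not overlap the 4 late ones in 186 of the 193, against 1405 of all genes tested (6.64%). Of the 193 calls 158 were protein coding, beside 14718 of all 21170 genes tested. The count depended on how the spread was handled, at 89 with the 8 libraries alone, 545 with DESeq2 and 545 with the spread of all 24 kidney libraries. With the adipocyte level as a covariate 360 genes passed, including all 193, and without the 3 libraries of highest adipocyte sum 342 passed, of which 144 were among the 193. The count fell to 36 and 41 without 1 or the other CT16 library, to 51 without 1 CT4 library and to 79 without 1 CT20 library. It also fell to 129 and 121 without 1 or the other CT12 library, and to 108 and 109 for those of CT24. CT12 and CT24 enter this contrast only for the spread, so a fall is not the part of the left-out library alone. The count was 160 at most in the 12 refits that left out 1 library. Of the 51 called genes named below, 18 passed in all 12 of these refits and 4 in none, and none changed sign. A 24 h cosine passed in 411 genes (1.94%), 154 of them among the 193. A joint test of the 6 times, with no assumed shape, passed in 152 genes (0.718%), at 28 without replicate 1 of CT24 and 187 without replicate 2 of CT20. All 14 rhythmic clock genes named below kept the cosine call in each of the 12 refits, while the count over all genes ran from 189 without replicate 1 of CT12 to 463 without replicate 1 of CT8. Of all 65 named genes past the cosine, 46 kept it without replicate 1 of CT12 and at most 61 in any such refit. Without replicate 1 of CT12 the losses included Sgk1, Atp12a, Ces1d, Chordc1, Zbtb16, Klf15, Insig1, Srebf1, Rrp12, Noct and Tspan4, named below. A rank procedure of the JTK_CYCLE kind called 0 of the 21170 genes at an adjusted p under 0.05, with 2837 at an unadjusted p under 0.05, and its smallest adjusted p was 0.0741. Its smallest unadjusted p, 2.89e-05, is the lowest that 2 libraries at each of 6 times allow. No gene can pass adjustment unless many share that lowest value, so the 0 does not decide on the cosine calls.

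Arntl and Npas2, the BMAL1 gene and one of its partners, showed the largest early excess among the clock genes. Arntl stood at 33.2 and 46.7 CPM at CT4, 41.7 and 43.1 at CT8, 17.3 and 9.25 at CT12, 5.39 and 4.41 at CT16, 8.68 and 6.81 at CT20, and 29.6 and 24.8 at CT24. The lowest early library was thus far above the highest late one, and the early-late difference was 2.74 ± 0.20 on the log2 scale (SE, 4 against 4 libraries, adjusted p = 0.00038). Npas2 stood at 14.5 and 19.8 CPM at CT4, 24.3 and 23.0 at CT8, 10.9 and 5.28 at CT12, 2.32 and 1.75 at CT16, 2.42 and 1.60 at CT20, and 5.77 and 4.89 at CT24. Its early level was 3.31 ± 0.24 higher (log2), and unlike Arntl it had not recovered by CT24. Clock itself moved in the same direction over a narrow range, from 149 to 165 CPM early and 107 to 117 CPM late, a difference of 0.48 ± 0.08 (adjusted p = 0.020). Arntl2, a paralog of Arntl, stayed between 1.23 and 2.13 CPM in every library with a difference of -0.01 ± 0.21. Arntl and Npas2 passed in every refit without 1 library, and Clock lost its call without replicate 2 of CT4, either CT16 library or replicate 1 of CT20, at 0.45 to 0.50. So 3 of 4 activators were higher early, none was higher late, and the median over the list was 1.61, against 0.00197 over all genes tested.

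Of the 6 repressors, 5 went the other way. Ciart, which codes for a repressor of the CLOCK and BMAL1 pair, stood at 1.09 and 0.646 CPM at CT4, 0.274 and 0.962 at CT8, 1.03 and 3.70 at CT12, 5.18 and 5.15 at CT16, 4.12 and 3.85 at CT20, and 1.42 and 1.37 at CT24. All 4 late libraries lay above all 4 early ones, and the difference was -2.62 ± 0.40 (log2, adjusted p = 0.018). Per3 ranged from 16.9 to 31.7 CPM early and from 70.9 to 104 CPM late, a difference of -1.83 ± 0.16. Per2 stood at 44.8 and 41.3 CPM at CT4, 22.4 and 23.6 at CT8, 66.7 and 59.0 at CT16 and 109 and 102 at CT20, and at 122 and 124 CPM at CT24 it was highest. Its early-late difference was -1.37 ± 0.16 (adjusted p = 0.0062). Per1, which is also induced by glucocorticoids, differed by -1.29 ± 0.22 with replicate spread as wide as 42.9 against 22.0 CPM at CT4, and its late libraries still lay above at 50.8 to 75.5 CPM. Cry2 differed by -0.72 ± 0.14 and sat close to the threshold (adjusted p = 0.0495). Cry1 was the exception and its early and late libraries overlapped (11.8 to 22.5 against 7.32 to 20.97 CPM, 0.41 ± 0.11, adjusted p = 0.14). Its profile was nevertheless steep, with a trough of 4.13 and 5.44 CPM at CT12 and a maximum of 30.2 and 26.0 CPM at CT24, which the early-late contrast does not span. All 6 repressors passed the cosine test, against 1.94% of all genes. Of the early-late calls, those of Per2 and Per3 held without any 1 library, that of Ciart was lost without replicate 2 of CT4 or either CT16 library (-3.19 to -2.30 over the 12 refits), that of Per1 held in 6 refits and that of Cry2 in 2.

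The REV-ERB genes rose between the activators and the Per genes. Nr1d1, coding for REV-ERBα, stood at 19.2 and 16.02 CPM at CT4, 29.4 and 38.4 at CT8, 81.7 and 91.3 at CT12, 77.8 and 81.8 at CT16, 36.9 and 31.5 at CT20, and 15.6 and 18.7 at CT24. The late libraries were higher by 1.09 ± 0.10 as a mean (log2 difference -1.09, adjusted p = 0.00084), although 1 CT8 library lay above both CT20 libraries, so the groups overlapped. Nr1d2, coding for REV-ERBβ, ran from 71.7 to 89.8 CPM early and 198 to 253 CPM late with no overlap, a difference of -1.53 ± 0.12. Nr1d1 and Nr1d2 passed without any 1 library. Rora, which codes for an activator at the same elements, passed neither test (-0.39 ± 0.11, adjusted p = 0.16, cosine adjusted p = 0.20).

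Among the output factors, Nfil3, a repressor that competes with the PAR bZIP factors, was on the early side at 21.1 to 31.6 CPM against 5.46 to 10.6 CPM late, a difference of 1.71 ± 0.14 (adjusted p = 0.00072). Tef, a PAR bZIP activator, was on the late side at 160 to 228 CPM early and 398 to 426 CPM late, a difference of -1.09 ± 0.08 (adjusted p = 0.00038). Hlf, of the same family, did not pass the early-late test (-0.45 ± 0.12, adjusted p = 0.14) but passed the cosine test with its maximum at CT24. Bhlhe40, a repressor that binds E-boxes, passed early-late at -0.58 ± 0.11 and not the cosine (adjusted p = 0.054), and its paralog Bhlhe41 passed neither (-0.91 ± 0.20, adjusted p = 0.072). Nfil3 and Tef held without any 1 library, and Bhlhe40 in 2 of 12 refits (-0.60 to -0.55). Dbp could not be followed, since it was listed at no more than 0.0817 CPM in any SD kidney library and was not tested. In all, 13 of the 18 clock genes tested passed early-late, beside 0.912% of all genes, and 14 passed the cosine, beside 1.94%.

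**Figure D1:**
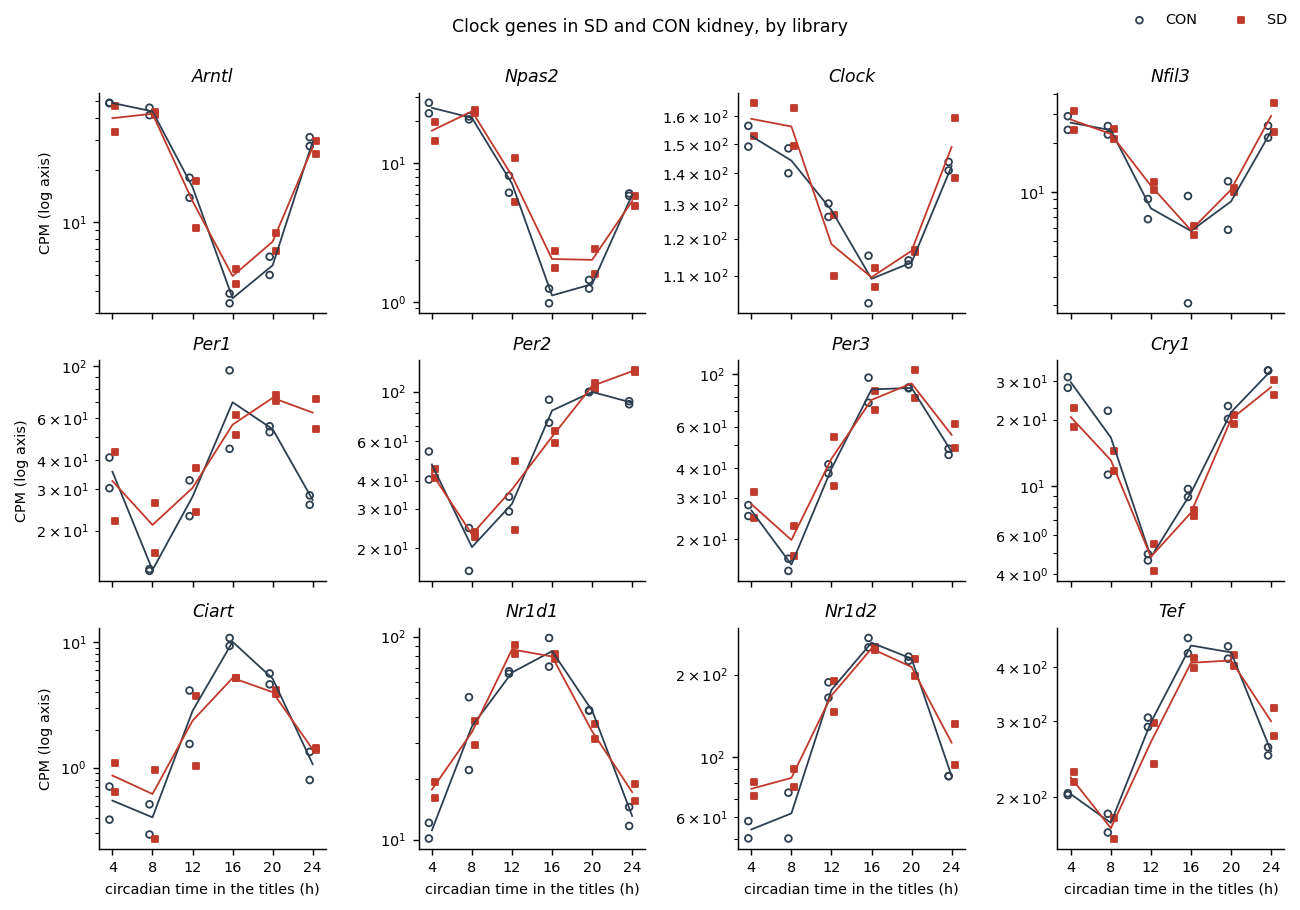
CPM of 12 clock genes (log axis) against the circadian time in the titles, with squares for the 2 SD libraries and circles for the 2 CON libraries at each time and lines through their means. Arntl, Npas2, Clock and Nfil3 are high at CT4 and CT8, whereas the Per genes, Ciart, Nr1d2 and Tef are high at CT16 and CT20, in both conditions.

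The fitted peaks set these genes in a sequence through the day. Listed from CT 0, Cry1 stood at CT 0.78 ± 0.32 h (SE from the cosine fit), followed by Nfil3 at 3.70 ± 0.34 h, Clock at 4.34 ± 0.51 h, Arntl at 4.95 ± 0.28 h and Npas2 at 6.58 ± 0.23 h. The cycle has no first gene, and Cry1 also comes next after the last ones listed, Per2 and Hlf. Nr1d1 followed 7.35 h later at 13.9 ± 0.17 h, and Nr1d2 3.01 h after that at 16.9 ± 0.25 h. Next were Ciart at 17.3 ± 0.52 h, Tef at 18.7 ± 0.32 h, Per3 at 18.8 ± 0.32 h, Per1 at 20.3 ± 0.47 h, Cry2 at 20.7 ± 0.52 h, Per2 at 21.2 ± 0.37 h and Hlf at 21.4 ± 0.56 h. Neighbours were less than 2 combined SE apart from Nfil3 to Arntl, between Nr1d2 and Ciart, between Tef and Per3 and from Per1 to Hlf, so no order is read within those stretches. The amplitudes, measured from the mean level to the peak, were largest for Npas2 at 1.94 ± 0.12 (log2), Arntl at 1.65 ± 0.13 and Ciart at 1.52 ± 0.21, and smallest for Clock at 0.31 ± 0.04. The zero of the circadian time used in the titles is not stated in the sources used here, and the characteristics count it differently. The hours therefore serve as an order within these libraries and not as hours from dawn.

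**Figure D2:**
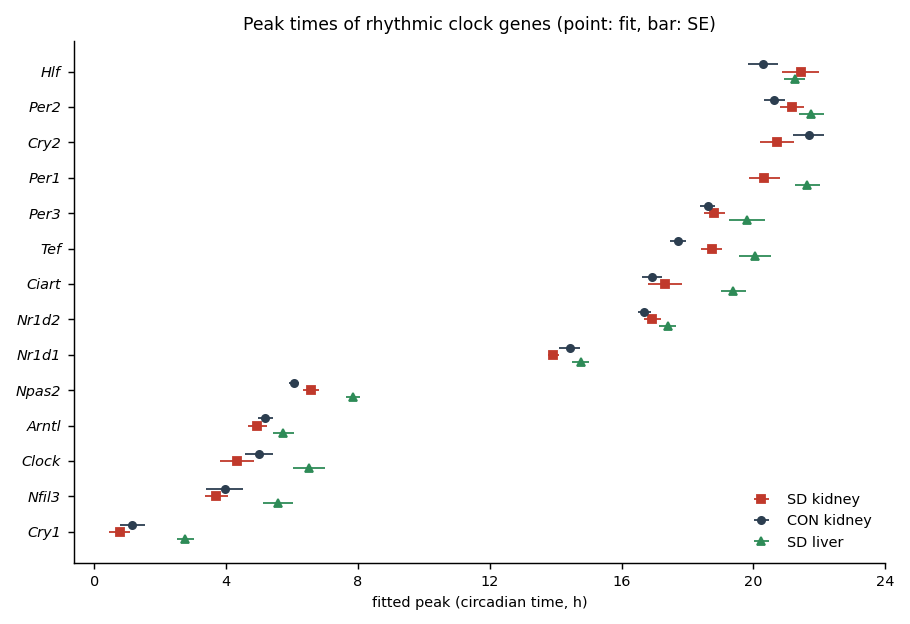
Fitted 24 h peak (circadian time, h) of the 14 clock genes that passed the cosine test in SD kidney, with SE bars, for SD kidney (squares), CON kidney (circles) and SD liver (triangles) where the gene passed there too. Cry1, Nfil3, Clock, Arntl and Npas2 peak before Nr1d1 wherever plotted, and in SD liver 12 of 13 peaks lie later than in SD kidney.

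The 411 genes with a 24 h cosine were spread over the whole cycle. The fitted peak fell between CT 20 and CT 24 in 92 genes, between CT 0 and CT 4 in 78, between CT 4 and CT 8 in 74, between CT 8 and CT 12 in 52, between CT 12 and CT 16 in 73 and between CT 16 and CT 20 in 42. The median amplitude was 0.37 on the log2 scale. Of these genes 257 did not pass the early-late test, which cannot see a gene that peaks near CT0 or CT12. Promoter windows were found for part of the genes only. An E-box lay in 12 of 59 rhythmic genes with a peak between CT 0 and CT 4 (20.3%), in 11 of 51 between CT 4 and CT 8 (21.6%), in 4 of 33 between CT 8 and CT 12 (12.1%), in 4 of 51 between CT 12 and CT 16 (7.84%), in 6 of 34 between CT 16 and CT 20 (17.6%) and in 16 of 71 between CT 20 and CT 24 (22.5%), beside 10.6% of the tested genes with a window. By the early-late test it lay in 9 of 68 genes higher early (13.2%) and in 6 of 70 higher late (8.57%), so over all called genes the E-box was not more frequent on the late side. A RORE core lay in 4 of 68 genes higher early (5.88%) and in 0 of 70 higher late, beside 2.47% of the tested genes with a window. These shares are descriptions of small sets.

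**Figure D3:**
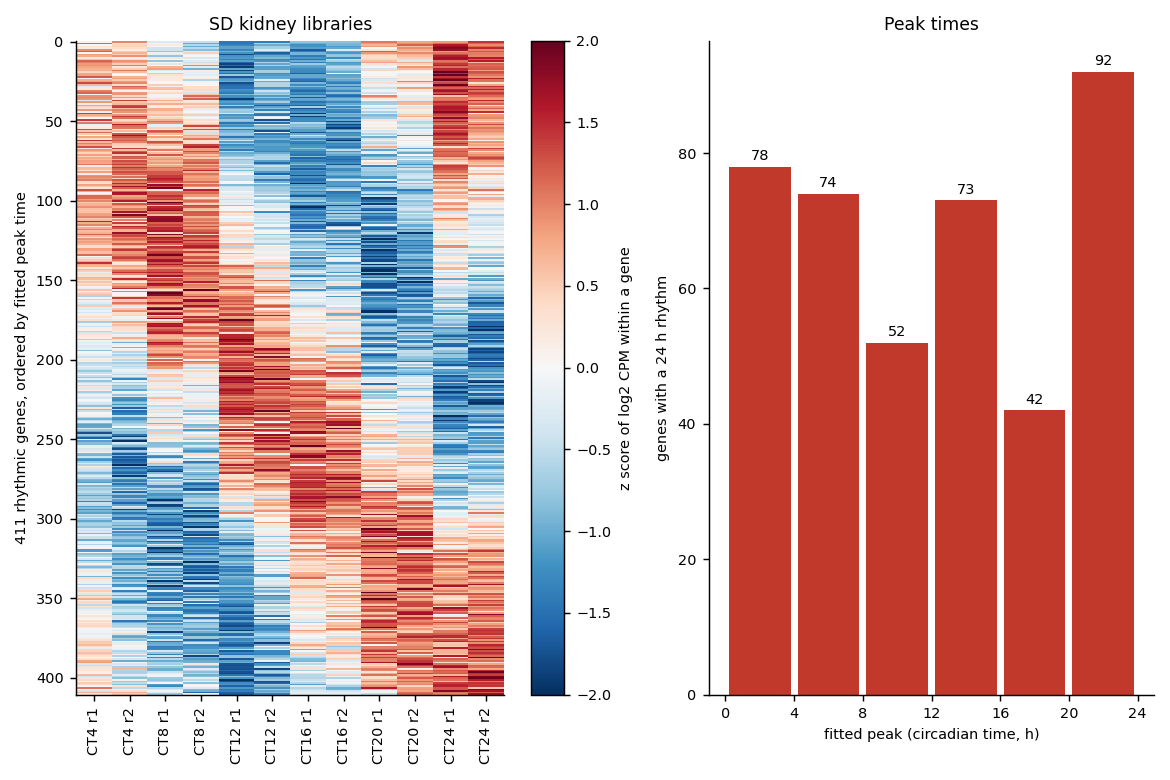
Left, z scores of log2 CPM for the 411 rhythmic genes (rows, ordered by fitted peak) in the 12 SD kidney libraries (columns, r1 and r2 are replicates). Right, the number of these genes by fitted peak in bins of 4 h, from 42 genes between CT 16 and CT 20 to 92 between CT 20 and CT 24.

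Genes of kidney function were sorted into lists by role, and few transporters passed either test. Of 18 sodium and chloride transporters, 0 passed the early-late test or the cosine (differences of -0.25 to 0.12, lowest adjusted p = 0.38), and likewise 0 of 16 organic solute and drug transporters (lowest adjusted p = 0.10). In CON kidney alone 4 of the 18 passed early-late, all higher late, and 3 the cosine. Of the 16, 2 passed each test there. None of these genes passed the test of the difference between SD and CON, so the 0 counts do not set SD apart. In SD, 0 of 14 regulators of salt transport passed early-late, while Sgk1, Tsc22d3 and Usp2 passed the cosine. Sgk1, a kinase that keeps the sodium channel ENaC at the membrane, stood at 178 and 93.6 CPM at CT4, 80.7 and 152 at CT8, 78.1 and 102 at CT12, 81.4 and 118 at CT16, 213 and 239 at CT20, and 323 and 296 at CT24. It was highest at CT24 and wide between replicates before that (amplitude 0.85 ± 0.14, peak at 23.4 ± 0.68 h). Its cosine call was lost without replicate 1 of CT12 or without either CT24 library.

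Both water-handling genes that passed were vasopressin receptors. Avpr1a, the V1a receptor, stood at 20.6 and 21.3 CPM at CT4, 30.4 and 25.9 at CT8, 18.7 and 16.04 at CT12, 8.83 and 9.56 at CT16, 11.2 and 11.7 at CT20, and 17.7 and 15.6 at CT24. The groups were well apart, with a difference of 1.25 ± 0.09 (log2, adjusted p = 0.00038). Avpr2, the V2 receptor through which vasopressin opens the collecting duct to water, was higher early by 0.51 ± 0.09 (21.7 to 27.7 against 16.1 to 19.3 CPM, adjusted p = 0.027). The call of Avpr1a held without any 1 library and that of Avpr2 in 5 of 12 refits (0.43 to 0.59). In this list of 10 genes the aquaporins and other members did not pass, and the median was 0.18. Slc4a9, an anion exchanger of intercalated cells, was higher late by a small margin of 0.30 ± 0.06 (log2 difference -0.30, 34.4 to 36.0 against 41.9 to 44.6 CPM) and was the only one of 12 potassium and acid genes past the early-late test, a call that held in 0 of the 12 refits without 1 library. Atp12a, a proton-potassium pump, passed the cosine at 0.309 to 3.51 CPM. Of 11 genes of renal hormones and vitamin D, Cyp24a1 passed. It codes for the enzyme that inactivates vitamin D, and stood at 17.8 and 10.1 CPM at CT4, 20.2 and 43.8 at CT8, 83.1 and 116 at CT16 and 86.9 and 129 at CT20, a difference of -2.30 ± 0.40 (adjusted p = 0.030, past the test in 5 of 12 refits at -2.61 to -2.07).

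Chaperones of the endoplasmic reticulum (ER) formed the list with most early-late calls outside the clock, at 6 of 16 genes beside 0.912% of all genes, with a median of 0.28. Hspa5, the main ER chaperone BiP, stood at 510 and 602 CPM at CT4, 690 and 789 at CT8, 383 and 454 at CT12, 338 and 389 at CT16, 343 and 448 at CT20, and 912 and 804 at CT24. It was higher early by 0.76 ± 0.12 (log2, adjusted p = 0.018), and its highest values were at CT24, outside that contrast. Sdf2l1, Hyou1 and Creld2, also chaperones or cofactors of folding, were higher early by 0.92 ± 0.16, 0.71 ± 0.10 and 0.64 ± 0.12, and Dnajb11 was the other member that passed on the early side. Herpud1, which takes part in the removal of misfolded ER proteins, went the other way at 147 to 178 CPM early and 234 to 278 CPM late (-0.64 ± 0.12). Without 1 library at a time Hyou1 passed in 11 of 12 refits, losing it without replicate 1 of CT16, Hspa5 passed in 9, Sdf2l1 in 6 and Creld2 and Herpud1 in 2 each. Of 17 genes of the heat shock response 0 passed early-late, and Chordc1, an HSP90 cochaperone, passed the cosine with 110 and 110 CPM at CT24 against 51.3 to 57.6 CPM at CT12 and CT16. That cosine call was lost without any 1 library of CT12, CT16 or CT24.

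Of 14 glucocorticoid-responsive genes 4 passed early-late, all on the late side, beside 0.458% of all genes, and 10 passed the cosine, beside 1.94%. The 4 were Mt2, Mt1, Dusp1 and Per1, and Per1 is counted among the clock repressors too. Tsc22d3 was also named with the regulators of salt transport. Lists thus share members, and their counts are not separate results. The list median was -0.47, and 3 genes passed neither test. Zbtb16, a transcription factor strongly induced by steroids, rose from 11.8 and 8.995 CPM at CT12 to 72.8 and 37.7 CPM at CT20 (amplitude 1.22 ± 0.20, peak at 21.2 ± 0.62 h). Fkbp5, a cochaperone that restrains the receptor, stood at 52.3 and 44.9 CPM at CT12 and 142 and 146 CPM at CT24 (peak at 23.3 ± 0.52 h). Tsc22d3, which codes for GILZ, peaked at 22.6 ± 0.41 h, Cebpd at 22.2 ± 0.59 h, Klf15 at 22.0 ± 0.69 h and Errfi1 at 20.6 ± 0.60 h. The cosine call of Klf15 was lost without either CT8 library, either CT12 library, or replicate 2 of CT20 or CT24. Dusp1, a phosphatase of MAP kinases, was higher late by 0.56 ± 0.10 (log2 difference -0.56). The metallothioneins Mt1 and Mt2, which bind zinc, are also in this list, and Mt2 had the earliest fitted peak of the 10 members past the cosine. Mt2 stood at 5.76 and 3.99 CPM at CT4, 5.85 and 5.72 at CT8, 19.3 and 13.5 at CT12, 17.2 and 14.95 at CT16, 11.5 and 10.6 at CT20, and 8.13 and 6.45 at CT24, a difference of -1.32 ± 0.15 with a peak at 15.6 ± 0.44 h. The Mt2 call held without any 1 library, and those of Mt1 and Dusp1 in 2 of 12 refits each.

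In the metabolic lists few genes passed. Of 15 genes of sterol and fatty acid synthesis 0 passed the early-late test, against 4 in CON kidney alone. The lowest adjusted p of that test in SD was 0.051, while the list median was 0.53. Insig1 and Srebf1, which control sterol and lipid synthesis, passed the cosine with peaks at 3.16 ± 0.73 h and 2.14 ± 0.67 h. Both lost that call without any 1 library of CT12 or CT16 or without replicate 2 of CT24, and Insig1 in further refits. Msmo1, an enzyme of cholesterol synthesis that was not in the list, was higher early by 0.86 ± 0.09. Ppara, a receptor that drives fatty acid oxidation, was higher late at 215 to 291 against 127 to 190 CPM (-0.67 ± 0.12) and the only one of 14 fasting genes to pass. Of 8 genes of gluconeogenesis 0 passed early-late, and Pck1, its gate enzyme, passed the cosine, at 1682 to 3246 CPM early and 3924 and 4511 CPM at CT24. In the cell cycle list Wee1, a kinase that holds back mitosis and a known clock target, passed with -0.82 ± 0.12 (11.5 to 20.1 against 23.9 to 33.5 CPM), and the median of its 14 members was -0.58. In the list of circadian RNA and NAD control Leo1, a subunit of the PAF1 elongation complex, was higher early by 0.86 ± 0.11, and Nampt, the rate-limiting enzyme of NAD salvage, and Upp2, a uridine phosphorylase, were higher late (-0.37 ± 0.07 and -0.58 ± 0.10). Noct, a phosphatase for NADP, and Tspan4 passed the cosine. Without 1 library at a time the early-late call held in 12 of 12 refits for Msmo1, 11 for Leo1, 9 for Wee1, 6 for Upp2, 4 for Ppara and 0 for Nampt. Of 14 immediate early genes 0 passed either test, with a lowest adjusted p of 0.31, and of 15 ribosome biogenesis genes only Rrp12 passed the cosine. Ces1d was the only one of 16 xenobiotic genes to do so, at 623 and 630 CPM at CT24 and 336 and 410 CPM at CT12.

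**Figure D4:**
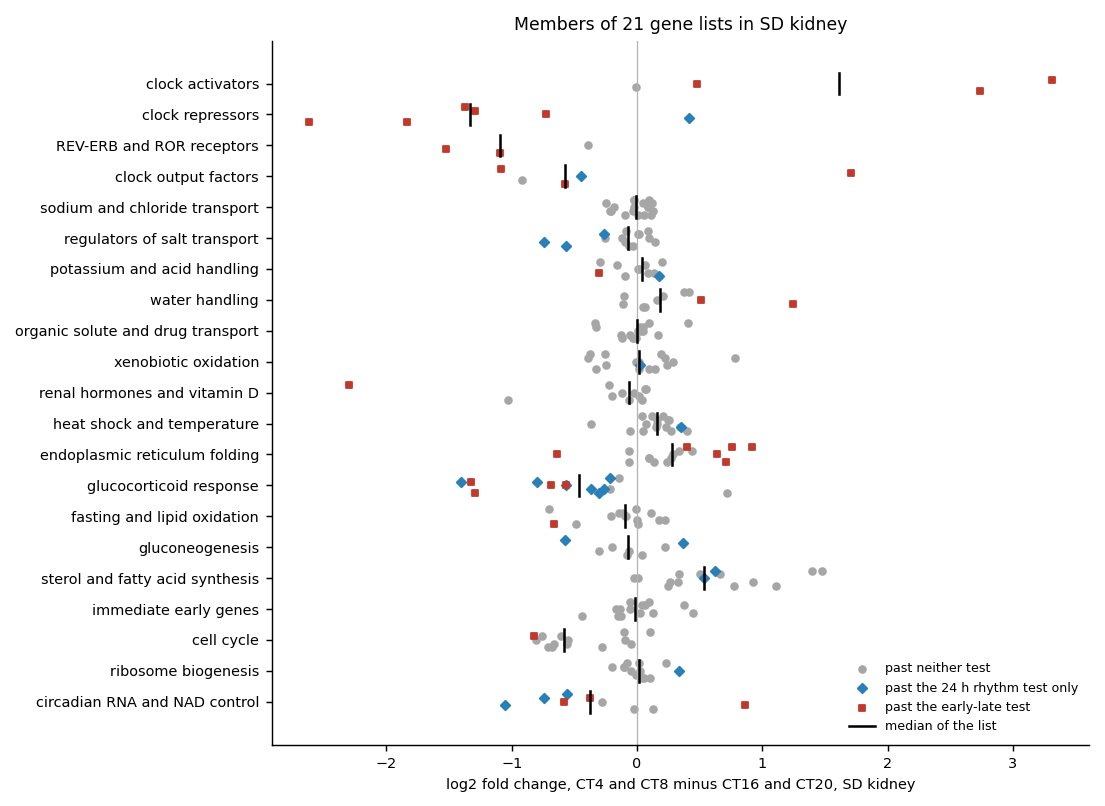
Early-late log2 fold change in SD kidney (x axis, positive is higher at CT4 and CT8) of each tested member of 21 gene lists (rows), with squares for genes past the early-late test, diamonds for genes past the cosine test only and a black bar at the list median. Clock lists reach from -2.62 to 3.31, whereas the sodium and chloride transporters lie between -0.25 and 0.12.

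Outside the lists, the 10 largest early genes that did not overlap were Ppard, Chrna7, Palm3, Insc, Slc16a1, Foxs1, Dtx4, Itgb6, Nt5e and Msmo1, with differences of 1.77 down to 0.86. Ppard, a nuclear receptor for fatty acids, stood at 34.9 and 48.2 CPM at CT4, 74.5 and 58.7 at CT8, 35.1 and 22.7 at CT12, 15.9 and 14.1 at CT16, 15.4 and 16.5 at CT20, and 35.8 and 24.8 at CT24 (1.77 ± 0.18, adjusted p = 0.0020). Slc16a1, the lactate and ketone body carrier MCT1, ranged from 117 to 157 CPM early and 40.3 to 68.2 CPM late (1.29 ± 0.16). Chrna7, the alpha 7 subunit of the nicotinic receptor, ranged from 6.28 to 9.66 CPM early and 1.68 to 3.596 CPM late (1.55 ± 0.22). Itgb6, the beta 6 integrin of epithelia, and Nt5e, the ectoenzyme that makes adenosine, differed by 0.94 ± 0.11 and 0.92 ± 0.14. In the refits without 1 library all but Chrna7 (10 of 12), Nt5e (9 of 12) and Foxs1 (4 of 12) kept the call every time.

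On the late side the 10 largest were Bbox1, Nat8f3, Wfdc16, Tpx2, Nat8f6, Coro2a, Pgbd5, Col27a1, Kcnc2 and Lrit3, with differences of -1.08 to -0.76. Bbox1, which completes carnitine synthesis, was low throughout at 0.875 to 2.05 CPM early and 2.12 to 3.34 CPM late (-1.08 ± 0.18). Col27a1, a fibrillar collagen, was measured more precisely, at 42.4 to 53.7 CPM early and 70.8 to 107 CPM late (-0.78 ± 0.07, adjusted p = 0.00084). Tpx2, a spindle protein of dividing cells, differed by -0.88 ± 0.16 at 2.70 to 4.92 CPM early and 5.84 to 7.73 CPM late. Nat8f3 and Nat8f6 belong to a family of near-identical copies, so their separate counts are uncertain (-1.01 ± 0.15 and -0.86 ± 0.14). The refits without 1 library left the call to Col27a1 in 12 of 12, to Nat8f3 in 9, Coro2a in 7, Bbox1 and Nat8f6 in 6, Lrit3 in 5, Kcnc2 in 3, Tpx2 in 2 and Wfdc16 and Pgbd5 in 0.

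The same contrast in CON kidney asked whether this program differed without sleep deprivation. No gene passed the test of the difference between SD and CON early-late changes, in 21528 genes tested with edgeR (0%), while 1128 had an unadjusted p under 0.05 and DESeq2 called 6. The 24 h curves did not differ past the threshold in any gene either (0%), with 874 at an unadjusted p under 0.05 and 0 by DESeq2. A cut of 0.05 passes a share near 0.05 of the genes even where nothing differs. Neither unadjusted count is far above that share. Of the 193 genes called in SD, 192 had a value in CON, 188 of those had the same sign there (63.2% of all genes did) and 140 passed the CON test, in which 886 genes passed (4.27%). The cosine passed in 852 genes of CON kidney (4.1%), 220 of them also in SD, and in these the SD peak was later by a median of 0.37 h (quartiles -0.23 and 1.07 h), with 202 within 2 h.

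Of the 16 clock genes that passed early-late in either condition, all passed in CON, and 14 had a smaller change in SD than in CON. The same held for 761 of all 884 genes that passed in CON and had a value in SD. No single difference of a clock gene passed. The largest was Ciart with -2.62 in SD and -3.92 in CON, a difference of 1.30 with a 95% interval of 0.070 to 2.52. For Npas2 the changes were 3.31 and 4.24, and the interval of the difference was -1.55 to -0.33, whereas for Arntl they were 2.74 and 3.36 with an interval of -1.13 to -0.12. Nr1d2 differed by 0.54 with an interval of 0.18 to 0.89, at 71.7 to 89.8 CPM in the early SD libraries and 50.1 to 73.8 CPM in the early CON libraries. These intervals are for single genes and exclude 0, but their adjusted p all missed the threshold over 21528 genes. Tef changed by -1.09 and -1.22 with an interval of -0.078 to 0.33, Per2 by -1.37 and -1.55 with an interval of -0.32 to 0.65, and Avpr1a by 1.25 and 1.22 with an interval of -0.32 to 0.36. Peaks of the 13 clock genes rhythmic in both moved by a median of 0.20 h, from -0.96 to 1.13 h. In the other direction, of 884 genes that passed in CON and had a value in SD, 839 kept the sign and 761 had a smaller change in SD, with a median size of 0.38 in CON and 0.24 in SD. Part of that, and of the 14 of 16 clock genes, is fixed by the choice of genes on CON. In the 193 chosen on SD the median size was 0.65 in SD and 0.55 in CON.

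The smallest p values of the early-late comparison with CON belonged to Gpt2, Olfr1033, Reep6, Nav2 and Palld, none of which passed adjustment. Gpt2, a mitochondrial alanine aminotransferase, stood at 84.0 to 106 CPM early and 56.9 to 87.8 CPM late in SD, but at 59.6 to 76.0 CPM early and 67.3 to 100 CPM late in CON, a difference of changes of 0.69 (95% interval 0.44 to 0.93). Nav2, a neuron navigator protein, was higher early in both, by 0.30 in SD and 0.77 in CON. Olfr1033, annotated as an olfactory receptor, Reep6, an ER membrane protein, and Palld, an actin-binding protein, had differences of -1.20, 0.53 and 0.35. For the 24 h curve the smallest p values were those of Gpt2, Usp9y, Slc38a3, Tmem231 and Nav2. Of these Usp9y, a deubiquitinase gene, was at 0 CPM in 8 of the 12 SD libraries and Tmem231, a protein of the cilium gate, at no more than 0.37 CPM in any, while Slc38a3, the glutamine carrier SNAT3, ran from 36.1 to 54.0 CPM in SD and 27.3 to 54.0 CPM in CON. Mt2 and Mt1 had larger early-late changes in SD (-1.32 and -0.69) than in CON (-0.64 and -0.23), with unadjusted p of 0.013 and 0.014 for the difference.

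**Figure D5:**
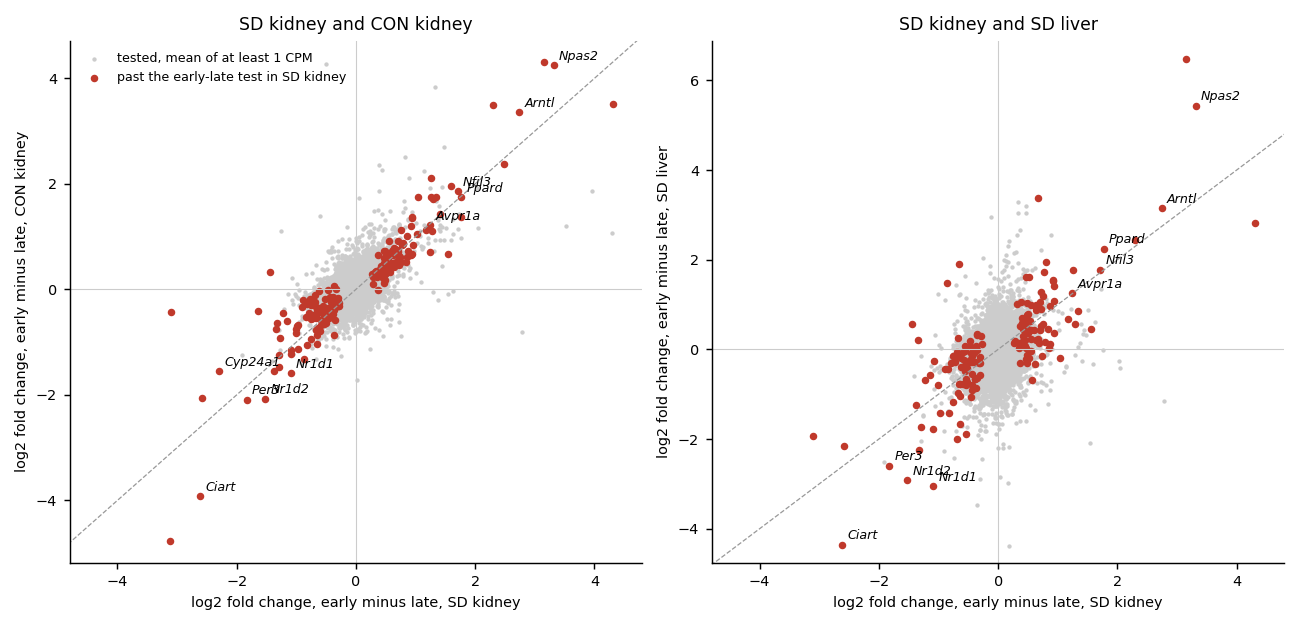
Early-late log2 fold change in SD kidney (x axis) against that in CON kidney (left) and in SD liver (right), with genes past the SD kidney test as large points, other genes of at least 1 CPM in grey and a dashed line of equal change. In CON kidney 188 of 192 large points have the same sign, and in SD liver 138 of 162.

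Against the liver of SD mice the early-late change differed in 394 of 22237 genes (1.77%), with the kidney change lower in 302 (1.36%) and higher in 92 (0.414%). That split depends on the scaling, since library sizes alone shifted the median of all genes to 0.12 and gave 233 lower and 397 higher. The count fell to 198 without replicate 2 of kidney CT16 and rose to 1319 without replicate 2 of liver CT16. In liver alone 7.46% of the genes tested passed early-late and 12.9% the cosine. Of the 193 kidney genes 29 passed the test of the difference, and 138 of the 162 with a liver value had the same sign there (57.3% of all genes did). Among the clock genes Nr1d1, Nr1d2, Npas2 and Cry1 differed. Nr1d1 changed by -1.09 in kidney and -3.05 in liver, a difference of 1.90 (95% interval 1.43 to 2.38), and Nr1d2 by -1.53 and -2.92. Npas2 changed by 3.31 in kidney and 5.43 in liver, and Cry1 by 0.41 and 1.80. Of the 13 clock genes rhythmic in both organs 12 had the smaller amplitude in kidney and 12 the earlier peak, with a median kidney minus liver difference of -1.27 h. Over all 181 genes rhythmic in both organs, 97 had the earlier peak in kidney and the median difference was -0.27 h. Usp2, a deubiquitinase under clock control, differed by 1.62 (-0.75 in kidney, -2.41 in liver), Bbox1 by -0.87 and Slc38a3 by 0.72. Nat8f6 was higher late in kidney and higher early in liver (-0.86 and 1.49). The smallest p values were those of Tubb2a, Coq8a, Lgalsl, Id3 and Psen2. Tubb2a, a beta tubulin, was higher early by 0.67 in kidney and 3.38 in liver. Coq8a, which serves coenzyme Q synthesis, and Psen2, a presenilin, changed by 0.11 and -0.041 in kidney and by 1.76 and 1.08 in liver. Lgalsl, a galectin-like gene, changed by 0.26 and 2.15, and Id3, an inhibitor of basic helix-loop-helix factors, by -0.37 and 1.49.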

How the data were processed

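Total RNA, depleted of ribosomal RNA and sequenced with strand kept, was measured in 96 libraries. Per the methods of the study and the submitters' processing notes, the authors trimmed reads with Trim Galore, aligned them to GRCm38 (mm10) with HISAT2, filtered on mapping quality with SAMtools and counted fragments per gene with featureCounts. The authors deposited these raw counts. The series table held 54833 features, of which 49326 had a GENCODE M21 symbol, and it equalled the separate library files in 96 of 96 cases.

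Groups followed the titles. The characteristics of the other tissues give the time before that of the title, and those of kidney disagreed further in places. All results rest on the titles. The members and gene lists were chosen with earlier results of these data known.

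Features that passed filterByExpr were fitted with edgeR 4.0.16 (R 4.3.3) under TMM scaling, by a quasi-likelihood test with Benjamini-Hochberg adjustment at 0.05. The early-late contrast and the joint test of times used 1 mean per time over the 12 SD kidney libraries. The cosine had a period of 24 h, and its amplitude is from the mean level to the peak. Comparisons with CON kidney and SD liver fitted 24 libraries and tested the difference of the changes. An error is an SE. The study calls the 2 libraries of a time biological repetitions, and p-values of the fits with 1 mean per time measure the spread between them. For the cosine and its comparison with CON, p-values and SE also hold the departure of the times from the curve. The tests were tested on simulated data. Named were the clock genes in full, up to 5 called genes of every other list, the 10 largest non-overlapping protein-coding genes per direction outside the lists with a mean of at least 1 CPM, and the 5 smallest p values of each comparison with CON kidney or SD liver. Genes outside this rule, such as the cosine-only members of lists, were named after their values were seen. Promoter sequences are from RefSeq. Some genes are not reported here and were left out of the lists.

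Alternatives were other scalings, no filter, DESeq2 1.42.0, a replicate block, 8 libraries alone, the spread of 24 libraries, a JTK_CYCLE procedure and each library left out. A covariate for adipocyte markers, and leaving out the 3 libraries highest in them, were added after seeing the data.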

Additional observations from a re-analysis of the deposited data

Results flagged for a closer look

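In 3 of 112 sets of 4 libraries tested, 1 library stood apart from the other 3 by more than 0.829 of the range of its set, where chance gives about 1 in 20 sets. Mt2 was at 3.99 CPM in 1 early library of CT4 and at 5.72 to 5.85 CPM in the others, a gap of 0.929 of the range. Foxs1 was at 1.52 CPM in 1 early library of CT4 against 2.28 to 2.38 CPM, a gap of 0.883. Bhlhe40 was at 102 CPM in 1 late library of CT16 against 107 to 108 CPM, a gap of 0.853.

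For 13 named genes the early-late change differed between SD kidney and SD liver past the adjusted threshold of edgeR's quasi-likelihood test. The difference, kidney minus liver on the log2 scale, was positive in Nr1d1 (1.90), Usp2 (1.62), Nr1d2 (1.34) and Slc38a3 (0.72). It was negative in Tubb2a (-2.76), Nat8f6 (-2.40), Npas2 (-2.18), Lgalsl (-1.94), Id3 (-1.91), Coq8a (-1.71), Cry1 (-1.44), Psen2 (-1.17) and Bbox1 (-0.87).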

How the results depend on the processing

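Of the 51 named genes past the early-late test, 0 changed sign under any alternative. The call held in 46 with library sizes alone, 50 with RLE factors, 51 without the filter, 51 with DESeq2, 28 with 8 libraries alone, 51 with the spread of 24 libraries, 51 with the adipocyte covariate and 43 without the 3 libraries of highest adipocyte sum. Arntl2, at -0.01, turned to 0.019, 0.15, 0.0013 and 0.14 without replicate 1 of CT4, CT8, CT16 or CT20 and passed in none of these, with a range of -0.21 to 0.15 over all 12 libraries left out in turn.

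The 193 early-late calls became 1057 without the filter, 545 with DESeq2, 89 with 8 libraries alone, 545 with the spread of 24 libraries, 360 with the adipocyte covariate and 342 without the 3 libraries. The 411 cosine calls became 1039, 1446 and 1020 without the filter, with DESeq2 and with the spread of 24 libraries, and 0 by the JTK_CYCLE procedure, which had 2837 at an unadjusted p under 0.05. The p of that procedure cannot fall under 2.89e-05 in this design, so its 0 does not decide on the cosine calls. The 152 calls of the joint test became 242 with library sizes alone, 2570 without the filter, 1210 with DESeq2 and 335 with the covariate. The differences between SD and CON numbered 218 early-late and 38 for the curve without the filter, and 6 early-late with DESeq2. Those between kidney and liver, 394, became 630 with library sizes alone, 1017 without the filter and 729 with DESeq2. The cause was not tested.

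With 1 library left out the counts ran from 36 to 160 early-late, 189 to 463 for the cosine, 28 to 187 for the joint test, 0 to 1 and 0 to 0 for the differences from CON, and 198 to 1319 for kidney against liver. A lone library at a time is assumed to vary like the others.

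The titles give same-numbered libraries of different times no link beyond the number. Their deviations correlated at -0.63 to 0.29 between times, which does not decide whether they share more than that. With the replicate block 93 genes passed early-late, 315 the cosine, 67 the joint test and 363 kidney against liver, and 34 of the 51 named calls held. Depth ran from 33291046 to 58486579 counts. Ciart, at about 1 CPM or less in early libraries, had a wide error, and the part of depth in that was not tested.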
